A study of Mus musculus with 185 samples.

Results

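The S100 family is a group of small calcium-binding proteins, and 8 of its genes were followed here in single non-myocyte cells of the mouse heart. They are S100a1, S100a4, S100a6, S100a10, S100a11, S100a13, S100a16 and S100b, taken by name from the 17171 genes of the deposited table. S100a4 encodes FSP1, fibroblast-specific protein, and was set against its paralogs as a marker of fibroblasts. A further 4 genes with S100 in their name are in the table and were counted as a separate group.

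The 185 cells came from adult hearts of C57BL/6 mice (a backcross, N = 6) of about 5 months of age, and each was captured and amplified in its own site of a Fluidigm C1 chip. By their labels they came from the heart at rest (called resident) or from the infarct region after myocardial infarction (MI) by coronary ligation (called activated). Before capture they were sorted for lack of CD31, an endothelial protein, and of CD45, a protein of blood leukocytes. The lineage label, eGFP, was read by microscopy after capture.

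The 27 activated Postn-traced cells came from Postn MCM/+; R26-eGFP mice, in which the tamoxifen-regulated Cre recombinase MerCreMer, placed in the periostin gene, turns on eGFP for good. The 17 resident Tcf21-traced cells and the 44 activated Tcf21-traced cells came from Tcf21 MCM/+; R26-eGFP mice, where the same recombinase sits in the gene of Tcf21, a transcription factor of resident fibroblasts. Both mouse lines received tamoxifen in their chow, and the traced infarct cells were taken 7 days after MI. The resident cells were 12 Postn-negative cells, 1 Postn-positive cell and 3 Postn-positive cells called Tcf21-positive, in addition to the 17. The remaining infarct cells are not named as traced and were 24 activated Postn-negative cells, 28 Postn-positive cells and 29 untraced cells from the scar. The 28 are called untraced Postn-positive here because their label names no trace, although it does not state its lack. The activated Postn-negative cells, taken 7 days after MI, and the resident Postn-negative cells are given as eGFP-negative cells of Postn MCM/+; R26-eGFP hearts, and for the other cells without a lineage label the mouse line is not stated class by class. The hearts of the resident cells are described as uninjured in some places and as sham-operated in another, with the remote region named for the Postn-negative cells. A Postn MCM/+ or Tcf21 MCM/+ mouse carries the recombinase in 1 copy of the gene. The eGFP label marks a cell that expressed that gene under tamoxifen, or whose ancestor did, and not its current expression.

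By their names the cells belong to 4 captures. Jul24 held the 33 resident cells, Jul29 57 infarct cells with all of the Postn-traced and Postn-negative ones, Nov4 63 with all of the activated Tcf21-traced ones and Nov11 32 with all of the scar cells. The untraced Postn-positive cells are the only class spread over several captures, with 6 cells in Jul29, 19 in Nov4 and 3 in Nov11. Between classes of different captures, class and capture cannot be told apart. No label names the mouse of a cell, and a class therefore stands for a single sample. Tests between classes were not possible, and no difference has a replicate check.

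Values are the deposited log2 (TPM+1), where TPM is a transcript abundance corrected for length and brought to a common total. On the linear scale the genes of a cell sum to between 999257 and 1000000 TPM, and the study states an average read depth over cells, but how many reads a given cell had is not known here. Between 141 and 5419 genes were above 5 TPM, the minimum for detection, in a cell, with a median of 2770. The median was 2264 in resident Tcf21-traced, 2092 in resident Postn-negative, 3643 in activated Postn-traced, 2342 in activated Postn-negative, 3280 in untraced Postn-positive, 3134 in activated Tcf21-traced and 3177 in untraced scar cells. A value of 0 may be a failed estimate: Gapdh, a glycolytic enzyme of every cell, was listed at 0 in 9 cells and Rplp0, a ribosomal protein, in 5, with 5 of each in the scar class. Of the scar cells, 6 had less than 50% of their capture's median number of genes, as did 1 untraced Postn-positive cell, and these 7 are called low-gene cells.

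S100 proteins pair with one another, change shape when they bind calcium and then attach to other proteins, among them annexins, cytoskeletal proteins and enzymes. Most of their genes lie side by side in a cluster, and each is used in its own set of tissues. In the heart S100a1 is best known from cardiomyocytes and S100b from nerve-associated glia, while S100a4 has been used to stain fibroblasts although leukocytes express it too.

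No label names the cells as fibroblasts, and 10 fibroblast genes were therefore counted in them. Dcn, a small proteoglycan of collagen fibres, was above 5 TPM in 185 of 185 cells, Col1a2 and Vim in 183, Col3a1 in 178, Col1a1 and Lum in 177, Pdgfra in 141, Ddr2 in 103, Tcf21 in 92 and Thy1 in 49. At least 3 of the 10 genes were detected in 184 cells, and their summed mean over all cells was 24153 TPM, of which Dcn made 11632. The exception was a resident Postn-negative cell with 2 fibroblast genes and 8 of 9 myeloid genes. Cd14, Lyz2, Cd68, Tyrobp and Ptprc were listed at 0 in the other 11 cells of its class, so that nearly all of the class's myeloid sum of 1771 TPM came from this cell. The list summed to 5.15 TPM in the untraced Postn-positive cells and 37.1 TPM in the untraced scar cells.

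The defining markers of other cell types were low in all cells together. Ptprc, which encodes CD45, was listed at 0 in all cells of 5 of the 7 larger classes, and the 9 myeloid genes summed to 130 TPM over all cells. The 5 endothelial genes summed to 28.4 TPM, led by Tek at 22.9 TPM, and 0 cells had 3 of them. The lists for Schwann cells (5 genes, 23.4 TPM, led by Cdh19), cardiomyocytes (6 genes, 25.9 TPM, led by Tnnt2), smooth muscle and pericytes (6 genes, 47.5 TPM, led by Rgs5) and epicardium (5 genes, 27.8 TPM, led by Wt1) reached 3 detected genes in 1, 2, 3 and 1 cells. The 2 adipocyte genes summed to 36.8 TPM, led by Fabp4, the 2 neutrophil genes to 0.482 TPM, led by Csf3r, and the 3 lymphoid genes to 0.46 TPM, led by Cd79a.

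Of the 8 genes, 7 lie on mouse chromosome 3 (positions in GRCm38, which is mm10). S100a1 (chr3:90511034-90514392, minus strand), S100a13 (chr3:90514435-90524581, plus strand), S100a16 (chr3:90537254-90543151, plus strand), S100a4 (chr3:90603771-90606045, plus strand) and S100a6 (chr3:90612882-90624181, plus strand) form a cluster with other S100 genes. S100a11 (chr3:93520488-93526287, plus strand) and S100a10 (chr3:93555080-93564643, plus strand) lie 28.8 kb apart and 2896 kb beyond S100a6. S100b is on another chromosome (chr10:76253853-76261159, plus strand).

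Promoter sequences are shown for S100a4 and S100a6, which lie close together and were detected in very different shares of cells, for S100a11, the most abundant member, and for the stretch where the promoters of S100a1 and S100a13 overlap. They run 5′ to 3′ on the plus strand of GRCm38.p6 (RefSeq). The first 3 are chr3:90603520-90603819, chr3:90612644-90612943 and chr3:93520246-93520545, from 250 bases before to 50 bases after the start site, and the shared stretch is chr3:90514281-90514484. Capitals mark the motifs described next.
S100a4: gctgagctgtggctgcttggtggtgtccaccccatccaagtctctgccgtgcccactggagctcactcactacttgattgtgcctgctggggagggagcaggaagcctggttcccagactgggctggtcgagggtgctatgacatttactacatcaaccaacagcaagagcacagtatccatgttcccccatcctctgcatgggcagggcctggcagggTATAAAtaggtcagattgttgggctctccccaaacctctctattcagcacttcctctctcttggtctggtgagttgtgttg
S100a6: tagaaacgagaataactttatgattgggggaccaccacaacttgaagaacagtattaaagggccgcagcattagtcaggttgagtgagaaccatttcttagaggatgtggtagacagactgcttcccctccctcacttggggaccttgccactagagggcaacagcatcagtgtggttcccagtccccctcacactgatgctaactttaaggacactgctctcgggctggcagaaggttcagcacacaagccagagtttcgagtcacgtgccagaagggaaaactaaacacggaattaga
S100a11: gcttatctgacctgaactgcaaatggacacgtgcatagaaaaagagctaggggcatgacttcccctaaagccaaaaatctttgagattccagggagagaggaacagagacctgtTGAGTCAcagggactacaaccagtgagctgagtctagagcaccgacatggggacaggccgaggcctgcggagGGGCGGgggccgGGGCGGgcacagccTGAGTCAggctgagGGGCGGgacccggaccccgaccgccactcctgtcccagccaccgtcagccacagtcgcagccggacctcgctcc
S100a1 and S100a13 shared: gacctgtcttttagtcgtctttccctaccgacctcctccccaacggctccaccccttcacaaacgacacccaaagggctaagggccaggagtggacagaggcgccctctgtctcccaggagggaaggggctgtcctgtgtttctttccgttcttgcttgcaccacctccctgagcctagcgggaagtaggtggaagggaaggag

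A promoter was found for 7 of the 8 genes, with 2 for S100a16, and S100a10 is named only. Of these 8 promoters, 1 held TATAAA, the core of a TATA box, on either strand. It was that of S100a4, where the letters begin 31 bases before the start site, and 13.6% of 32851 mouse promoters of the same length hold them. TGACTCA, the letters bound by AP-1 factors, occurs in the S100a11 promoter at 136 and 38 bases before the start site, both as TGAGTCA on the strand printed, and in 5.20% of all promoters. GGGCGG, a GC box, occurs at 3 places in the S100a11 promoter and in 1 of the S100a16 promoters, against 35.7% of all. These motifs were chosen after the sequences were seen, and a match describes letters, not a bound site. The S100a4 promoter was 55.3% G and C, that of S100a6 49.3% and that of S100a11 61.7%.

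Some of the sequence is shared with other genes, which bears on the counting of reads. In the S100a4 transcripts 203 of 484 windows of 100 bases (41.9%) are identical to windows of the predicted gene Gm42674, which overlaps it. In S100a11 140 of 412 windows recur in the pseudogene Gm12854 and 58 (14.1%) in the pseudogene Gm7665. How the authors' counting divided such reads is not given in the sources used here, so the levels of S100a4 and S100a11 are uncertain to that extent. The other 6 members shared no such window with any other gene, and no member shared one with another member. S100a1 and S100a13 lie on opposite strands and overlap by 98 bases in RefSeq, and reads from that overlap cannot be told apart without strand.

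S100a11, S100a6 and S100a10 were the abundant members in these cells. Over all cells S100a11 made up 48.8% of the summed mean TPM of the 8 genes, S100a6 20.7% and S100a10 17.1%, while S100a4 made up 1.61%. The summed mean TPM was highest in the untraced Postn-positive cells, at 9220, and the activated Tcf21-traced cells, at 8399. The first of these classes had 10597 in its 19 cells of Nov4, 7668 in 3 of Nov11 and 5637 in 6 of Jul29. Median genes above the minimum were 3361, 5179 and 2234 in these cells. What lies behind the spread was not tested. In the other 5 classes with more than 10 cells it was between 4758 in the untraced scar cells and 6236 in the resident Postn-negative cells.

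S100a11, a partner of Anxa1 at membranes, was above 5 TPM in 178 of 185 cells (96.2%, exact 95% Clopper-Pearson interval 92.4% to 98.5%; all intervals cover counting error only). Its log2 (TPM+1) ran from 0.00 to 13.37 over all cells, with a median of 11.44. Class means were 11.85 in activated Tcf21-traced, 11.80 in untraced Postn-positive, 11.19 in resident Postn-negative, 10.86 in activated Postn-traced, 10.29 in resident Tcf21-traced, 10.27 in activated Postn-negative and 8.69 in untraced scar cells. Neighbours in this order differed by less than the cell-to-cell SD of either class. In the scar class 6 of 29 cells had S100a11 listed at 0, while the median scar cell stood at 10.85, above the median of 10.41 in resident Tcf21-traced cells.

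S100a6, or calcyclin, was detected in 173 of 185 cells (93.5%, interval 88.9% to 96.6%), with a median log2 (TPM+1) of 10.40 and a highest value of 12.12. In the activated Tcf21-traced cells all 44 had it, between 8.82 and 12.12 with a mean of 10.65. In the resident Tcf21-traced cells all 17 had it, between 7.56 and 12.03 with a mean of 10.43. S100a6 was therefore as high in these resident cells as in the activated cells of the same lineage label. The lowest class mean was again in the untraced scar cells, at 6.86, where 22 of 29 had it.

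S100a10, which binds Anxa2 and, unlike its relatives, no calcium, was detected in 161 of 185 cells (interval 81.3% to 91.5%). Its median log2 (TPM+1) was 9.79 and its highest 12.27. In classes with more than 10 cells, means ran from 6.77 in resident Tcf21-traced cells, where 12 of 17 had it, to 9.40 in activated Tcf21-traced cells, where 43 of 44 had it. The resident Tcf21-traced cells held both values of 0.00 and values up to 10.95, so the classes overlap.

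**Figure D1:**
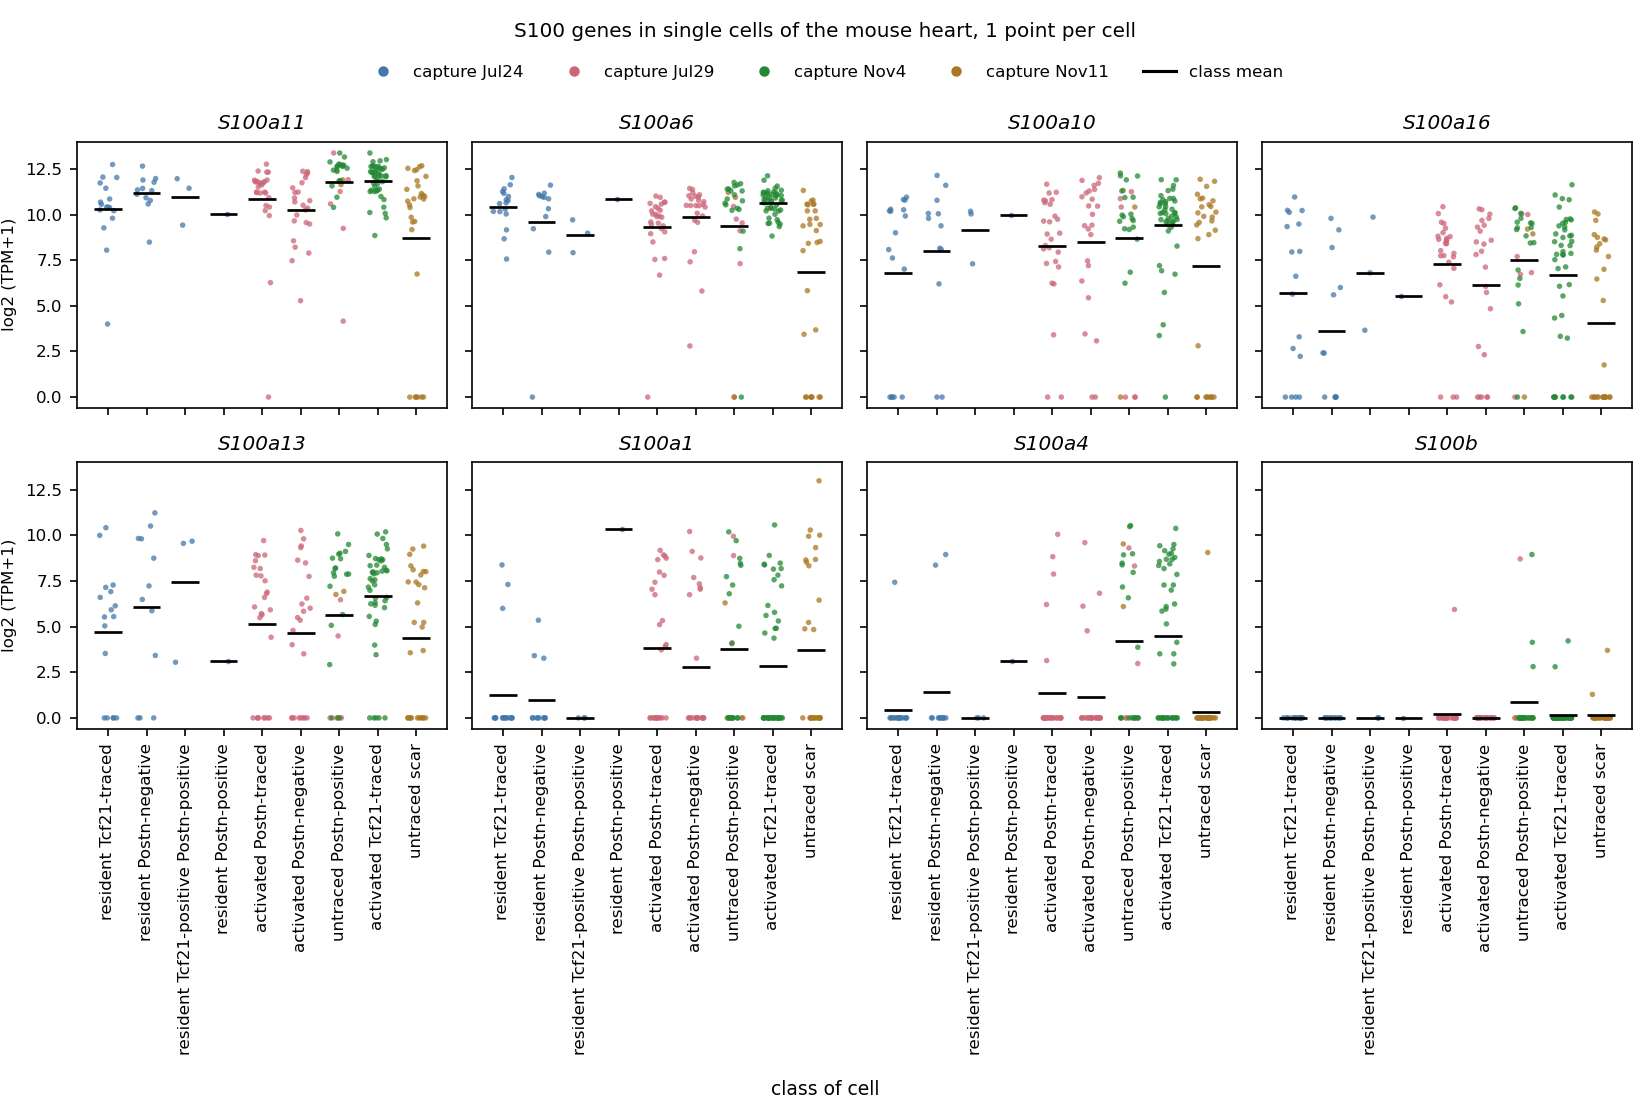
Each point is 1 of 185 cells, with log2 (TPM+1) on the vertical axis, the 9 classes on the horizontal axis, colours for the 4 captures and a bar at each class mean. S100a11 and S100a6 lie near or above 8 in most cells of every class, whereas S100a4 is listed at 0 in 129 cells and reaches class means of 4.51 and 4.20 in the activated Tcf21-traced and untraced Postn-positive cells.

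S100a16 and S100a13 were next in level, each in 138 of 185 cells (74.6%, interval 67.7% to 80.7%). S100a16, a widely expressed member with weak calcium binding, had its lowest class mean among the larger classes in resident Postn-negative cells, at 3.63, and its highest in untraced Postn-positive cells, at 7.51. In the same classes S100a13, which takes part in the release of Fgf1 and Il1a, ran from 4.35 in untraced scar cells to 6.68 in activated Tcf21-traced cells. Both genes were listed at 0 in some cells of each class with more than 10 cells, and both reached values above 9 in each of these classes.

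S100a1, a regulator of calcium handling in cardiomyocytes, was detected in 76 of 185 cells (41.1%, interval 33.9% to 48.5%) although these were sorted non-myocytes. Among the larger classes its share was lowest in resident Tcf21-traced cells, at 3 of 17, and highest in activated Postn-traced cells, at 15 of 27 (55.6%, interval 35.3% to 74.5%). The highest single value of any member apart from S100a11 was S100a1 at 12.99 in a scar cell. In the scar class S100a1 took 9.94% of the summed S100 TPM, against 0.0774% to 2.29% in the other larger classes. That share rests on the linear scale, where few cells weigh most: in the same class the median of log2 (TPM+1) was 0.00 and the mean 3.73.

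S100b, a marker of glia, was detected in 8 of 185 cells (4.32%, interval 1.89% to 8.34%). Of these, 4 were untraced Postn-positive, 2 activated Tcf21-traced, 1 activated Postn-traced and 1 an untraced scar cell. It was detected in 0 of 17 resident Tcf21-traced cells, which allows a share of up to 19.5%, and in 0 of 24 activated Postn-negative cells, which allows up to 14.2%. A single cell, singled out after its values were seen, had S100b at 8.71, S100a4 at 9.31 and the Schwann cell genes Sox10 at 4.12 and Cdh19 at 3.42. This untraced Postn-positive cell of Jul29 had Dcn at 4.06, the lowest value of all cells, and Pdgfra listed at 0. Lum was 0.00 in it, whereas Col1a1 was 7.62, Col1a2 7.94 and Postn 12.07. In the other 7 cells with S100b, 0 Schwann cell genes were detected and Dcn was between 12.35 and 13.60.

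The other S100 genes of the table were S100a3, S100a14 and S100a7a, and S100pbp, whose product binds an S100 protein. They were detected in 2, 2, 1 and 18 of 185 cells. S100pbp was above 5 TPM in 5 of 27 activated Postn-traced cells and 5 of 29 untraced scar cells.

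S100a4 was detected in fewer cells than every other member except S100b, and its level ranked 6 or 7 among the 8 means in 8 of the 9 classes and tied at 0.00 with S100a1 and S100b in the other. Over all cells 56 of 185 had it (30.3%, interval 23.7% to 37.4%), with log2 (TPM+1) between 2.96 and 10.54 in those cells. Of the larger classes, the activated Tcf21-traced cells had it most often, in 27 of 44 (61.4%, 45.5% to 75.6%), at 0.00 in the lowest cell, 5.50 in the median cell and 10.38 in the highest, followed by 15 of 28 untraced Postn-positive cells (53.6%, interval 33.9% to 72.5%), with 0.00, 3.43 and 10.54. In activated Postn-traced cells the median was 0.00 and the highest value 10.06, and in activated Postn-negative cells, with 4 of 24 (16.7%, interval 4.74% to 37.4%), they were 0.00 and 9.60.

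Among resident cells S100a4 was detected in 2 of 12 Postn-negative cells (16.7%, interval 2.09% to 48.4%), at up to 8.95, in 1 Tcf21-traced cell at 7.43 and in the single Postn-positive cell at 3.14. In the 3 Tcf21-positive Postn-positive cells it was not detectable (0 of 3, which allows up to 70.8%). The scar class had the lowest share of the larger classes, 1 of 29 (3.45%, interval 0.0873% to 17.8%), and its 1 value was 9.06. In each class S100a4 was thus either listed at 0 or present at several to many TPM. Among the larger classes its share of cells ran from 3.45% to 61.4% and its highest value from 7.43 to 10.54.

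By capture, S100a4 was detected in 37 of 63 Nov4 cells (58.7%), 12 of 57 Jul29 cells (21.1%), 4 of 33 Jul24 cells (12.1%) and 3 of 32 Nov11 cells (9.38%). The untraced Postn-positive class allows a view across captures. It had S100a4 in 10 of 19 cells in Nov4 (52.6%, interval 28.9% to 75.6%), 3 of 6 in Jul29 (interval 11.8% to 88.2%) and 2 of 3 in Nov11 (66.7%, interval 9.43% to 99.2%). Mean log2 (TPM+1) was 4.28, 3.44 and 5.21. The share and mean of Jul29 include the cell with Schwann cell genes, where S100a4 was 9.31. Within Jul29 these 3 of 6 cells stood beside 5 of 27 Postn-traced cells, and within Nov11 the 2 of 3 stood beside 1 of 29 scar cells. The intervals overlap within Jul29 and within Nov11, and with 6 and 3 cells they are wide. The 2 Nov11 cells with S100a4 had 5419 and 5179 genes above the minimum, the most of all cells.

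**Figure D2:**
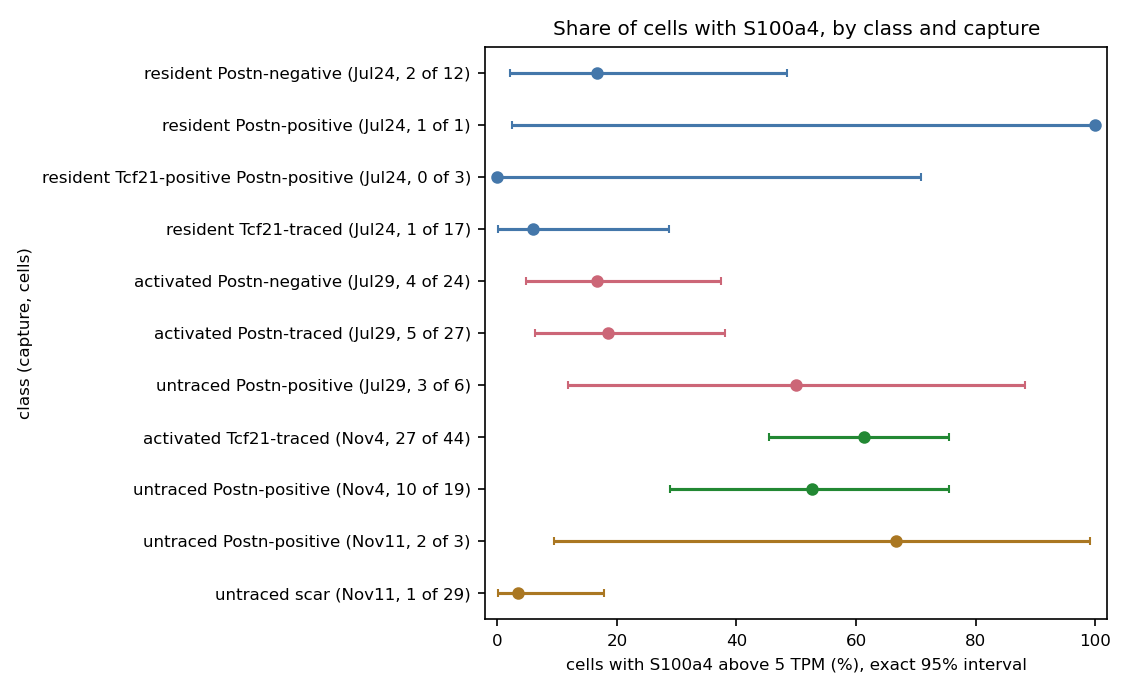
Points give the percentage of cells with S100a4 above 5 TPM in each class and capture, bars the exact 95% interval, and colours the capture. The share was 61.4% and 52.6% in the classes of Nov4, 50% in the 6 untraced Postn-positive cells of Jul29 and 3.45% in the 29 scar cells of Nov11.

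Set against fibroblast genes, S100a4 was found in a share of cells that differed between classes. For classes of different captures, class and capture cannot be told apart. Of the 184 cells with at least 3 fibroblast genes, 56 had S100a4 (30.4%, interval 23.9% to 37.6%) and 128 did not. In the larger classes this ran from 1 of 29 untraced scar cells (3.45%) to 15 of 28 untraced Postn-positive (53.6%) and 27 of 44 activated Tcf21-traced cells (61.4%). The same 184 cells had S100a11 in 177 (96.2%), S100a6 in 173, S100a10 in 161 (87.5%), S100a13 and S100a16 in 138 each, S100a1 in 76 (41.3%) and S100b in 8 (4.35%). Almost all cells here carry fibroblast genes, so these shares measure how often a gene is found in such cells, and how specific it is to them was not measured.

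The reverse count gives the company of S100a4. All 56 cells with S100a4 also had Col1a1, Col1a2, Col3a1, Dcn and Vim, which 177 to 185 of all cells had, 55 had Lum, 47 Pdgfra and 27 Tcf21. Postn, which marks activation, was detected in 46 of the 56 (82.1%) and in 132 of 185 cells overall (71.4%), and Fn1, fibronectin, in 48 of the 56 (85.7%) and in 133 overall (71.9%). Seen from the other gene, S100a4 was found in 29.3% of the 92 cells with Tcf21, 33.3% of the 141 with Pdgfra, 34.8% of the 132 with Postn, 38.8% of the 49 with Thy1 and 42.9% of the 63 with Acta2, which encodes αSMA. After subtracting the mean of class and capture, its correlation with the 10 fibroblast genes ran from -0.17 for Dcn to 0.20 for Thy1 over 185 cells, a weak relation in either direction.

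S100a4 is also expressed by leukocytes, and their markers were counted in the same cells. At least 3 myeloid genes were detected in 2 cells, a resident Postn-negative cell and a scar cell, and S100a4 was listed at 0 in both. At least 1 myeloid gene was detected in 33 cells, of which 14 had S100a4, against 56 of all 185 cells (30.3%). Cells had been sorted for lack of CD45, so these counts cannot show how often leukocytes have S100a4. The cells with 3 or more genes of the cardiomyocyte list, 2 in all, both had S100a4, as did the 1 cell each for the Schwann and epicardial lists and 2 of the 3 for smooth muscle and pericytes. S100a4 also varied with the number of genes detected in a cell (r of 0.33 after subtracting the mean of class and capture). The bearing of that number on these counts was not tested.

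**Figure D3:**
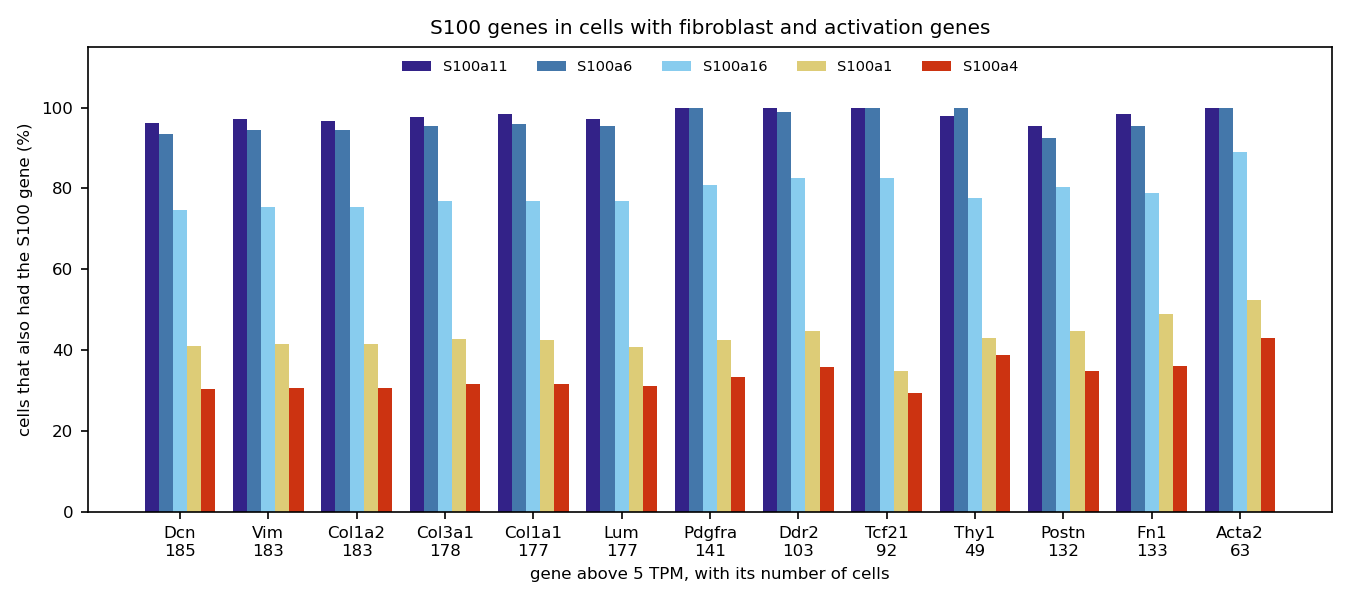
Bars give, for cells with each gene on the horizontal axis above 5 TPM (number of cells under its name), the percentage that also had S100a11, S100a6, S100a16, S100a1 or S100a4. S100a4 lies between 29.3% (Tcf21) and 42.9% (Acta2), and S100a11 above 95% throughout.

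The first comparison asks how the S100 genes differ between periostin lineage-traced cells and Postn-negative cells of the same infarct capture. In mean log2 (TPM+1) the traced cells had slightly more S100a16 and S100a1, which mean TPM did not show, and most members hardly differed. Mean S100a16 was 7.30 in activated Postn-traced and 6.17 in activated Postn-negative cells, a difference of 1.13 in log2 (TPM+1), and mean S100a1 was 3.83 and 2.80, a difference of 1.03. S100a4 was 1.34 and 1.14, a difference of 0.20, so the cells that express Postn, Col1a1 (3.90 higher) and Fn1 (5.98 higher) had no more S100a4 than their Postn-negative neighbours beyond the spread between cells. S100a6 was lower in the traced cells by a mean difference of -0.56.

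Here and in each later comparison 7 of the 8 members passed the filter of detection in at least 10% of the cells of both classes together, and S100b did not. More than 1 log2 unit higher were 2 members, against 33.2% of the 7636 genes past the filter, and 0 were lower, against 4.57%. The median difference was 0.35 for the 8 members and 0.61 for all genes, and the median number of genes per cell was 3643 and 2342. Each member difference but S100b was smaller than the cell-to-cell SD of both classes, which was 3.05 and 2.70 for S100a4. On the logarithm of mean TPM the S100a16 difference was -0.04 and that of S100a1 0.03, so the direction of S100a16 depends on the scale and the 1 member past 1 unit was S100b, at 1.70 from 1 cell. Of 20 S100 partners and receptors analysed, 8 were higher past 1 unit and 1 was lower. Anxa6 differed by 2.49 and Myh9, the non-muscle myosin heavy chain that S100a4 binds, by 1.76 (5.85 against 4.08). Bsg, a membrane glycoprotein, differed by 1.52, and Anxa1 by -1.45. Mean TPM was 236 against 181 for Anxa6, 71.2 against 20.5 for Myh9, 294 against 206 for Bsg and 1371 against 2399 for Anxa1.

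Within Nov4, the activated Tcf21-traced cells were set against the untraced Postn-positive cells of the same capture. S100a16 and S100a1 had lower mean log2 (TPM+1) in the 44 Tcf21-traced cells than in the 19 untraced cells, by less than 1 unit on the logarithm of mean TPM (-0.14 and -0.91), and S100a4 hardly differed. On that logarithm the 1 member past 1 unit was S100b, at -4.20, from 2 and 3 cells with the gene. S100a4 was 4.51 in the Tcf21-traced and 4.28 in the untraced cells, a difference of 0.22 that was below 0 in 2 of 8 settings, at the lowest -0.46. S100a16 was 6.68 and 7.95, a difference of -1.26, and S100a1 2.85 and 4.02, a difference of -1.17. S100a11 was 11.85 and 12.31, the highest level of any member in any class of this capture.

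These 2 were the members lower by more than 1 unit, against 9.01% of 8243 genes, and 0 were higher, against 6.36%. All 8 differences were smaller than the SD of both classes, with 3.96 and 4.40 for S100a4. The median was -0.53 for members and -0.05 for all genes. With medians over cells S100a4 differed by 1.62 (5.50 against 3.87). Among partners, Myh10, another non-muscle myosin, was lower by a difference of -2.17, Atp2a2, the calcium pump of the sarcoplasmic reticulum, by -1.28 and Myh9 by -1.13, and Tlr4, a receptor of innate immunity, was higher by 1.19.

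Among resident cells of Jul24, Tcf21-traced cells were set against Postn-negative cells. In mean log2 (TPM+1) the traced cells had more S100a16 and less of S100a13, S100a10 and S100a4. S100a16 was 5.69 in 17 traced and 3.63 in 12 Postn-negative cells, a difference of 2.06. S100a13 was 4.71 and 6.09, a difference of -1.38, and S100a10 6.77 and 8.02, a difference of -1.25. With medians over cells S100a10 differed by -0.58, and its mean TPM of 732 against 1139 was also within 1 unit. S100a4 was 0.44 and 1.44, a difference of -1.01 that rests on 1 and 2 cells with the gene. On the logarithm of mean TPM S100a4 differed by -2.66. On that scale S100a1 differed by 2.52 instead of 0.27, with the gene detected in 3 cells of each class.

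By direction, 1 member was higher past 1 unit, against 19.6% of 6652 genes, and 3 were lower, against 13.6%. The median was -0.45 for members and 0.15 for all genes. Each difference except that of S100b, listed at 0 in both classes, was smaller than the SD of both classes, and the medians over cells of S100a4 were both 0.00. Of the partners, 3 were higher and 2 lower, led by Tlr4 (-1.54), Sugt1, a co-chaperone (-1.23), Anxa5 (1.22) and Atp2a2 (1.17). Mean TPM of Anxa5 was closer, at 1429 in the traced against 1153 in the Postn-negative cells. Without the Postn-negative cell with 8 myeloid genes, left out after the data were seen, the difference was -1.98 for S100a10, -1.94 for S100a13, -1.15 for S100a11, 1.73 for S100a16 and -1.14 for S100a4, and that of S100a6 went from 0.84 to -0.03.

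Activated Tcf21-traced cells were set against resident Tcf21-traced cells to follow a lineage label from the uninjured heart into the infarct, with 1 capture for each class. All 8 members had higher means in the activated cells, as did 5824 of the 7610 genes past the filter, and S100a4 differed most of the members. S100a4 was listed at 0 in 16 of 17 resident cells and was 4.51 in the activated against 0.44 in the resident cells, which is a difference of 4.07 and larger than both cell-to-cell SDs (3.96 and 1.80). S100a10 was 9.40 against 6.77 (2.63), S100a13 6.68 against 4.71 (1.97), S100a11 11.85 against 10.29 (1.57) and S100a1 2.85 against 1.28 (1.57). S100a6, at 10.65 against 10.43, differed by 0.21, and S100a16 by 0.99.

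Past 1 log2 unit 5 members were higher, against 34.7% of 7610 genes, and 0 were lower, against 4.86%. The median difference was 1.57 for members and 0.65 for all genes, and more genes were above the minimum in the activated cells (medians of 3134 and 2264). With medians over cells S100a1 differed by 0.00, and on the logarithm of mean TPM S100a10 differed by 0.73 and S100a13 by 0.48, which left 3 members past 1 unit. Partners higher past 1 unit were 7 and lower 2. Anxa2, the annexin that holds S100a10 at membranes, was 10.92 against 8.33 (2.59), Myh10 was 3.14 against 1.15, Cacybp, which binds S100a6, 3.38 against 1.48, and Tlr4 differed by 1.88, while Anxa5 (-1.19) and Ahnak (-1.10), a scaffold of S100a10 and Anxa2, were lower. Mean TPM of Cacybp was not higher, at 71.4 in the activated against 79.6 in the resident cells. It was 48.2 against 35.2 for Myh10, 917 against 1429 for Anxa5 and 88.6 against 171 for Ahnak. In the same cells Postn differed by 8.51 and Fn1 by 4.57, and Pdgfra by -2.95.

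The activated Tcf21-traced cells were next set against the activated Postn-traced cells, which share the infarct but not the capture or the traced gene. S100a4, with the difference of 3.17, was accompanied by S100a13, S100a6 and S100a10, while S100a16 and S100a1 were not higher. On the logarithm of mean TPM these 3 differences were within 1 unit, at 0.64, 0.91 and 0.51, and that of S100b was -1.08. The S100a4 difference was also smaller on that scale but still past 1 unit, with mean TPM of 194 against 67.9. S100a13 was 6.68 against 5.12 (1.57), S100a6 10.65 against 9.29 (1.36) and S100a10 9.40 against 8.27 (1.13). S100a11 differed by 0.99, S100a16 by -0.62 (up to 0.42 in other settings) and S100a1 by -0.98.

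Higher past 1 unit were 4 members, against 6.50% of 8221 genes, and 0 were lower, against 11.3%. The median was 1.06 for members and -0.10 for all genes. The S100a4 difference exceeds the SD of the Postn-traced cells (3.05) and not that of the Tcf21-traced cells (3.96). Only 1 of 20 partners passed 1 unit, Anxa1, the annexin that S100a11 binds, at 10.55 against 9.23 (1.32). Its mean TPM was closer, at 2279 against 1371. Collagens went the other way, with Col3a1 at -1.61 and Col1a1 at -1.39. In the untraced Postn-positive cells, the only class in both captures, the 19 cells of Nov4 also stood above the 6 of Jul29, with 6.99 against 1.83 for S100a13, 10.21 against 7.69 for S100a6 and 4.28 against 3.44 for S100a4. S100a10 was listed at 0 in 3 of the 6 and in 0 of the 19. Median genes above the minimum were 2234 in the 6 and 3361 in the 19. The 6 include the cell with Schwann cell genes and a cell with S100a11 as the only member detected. Their bearing on the gap was not tested.

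Activated Postn-negative cells were set against resident Postn-negative cells, again with 1 capture each, so that infarct and capture cannot be told apart. Postn itself was above 5 TPM in 3 of 24 activated and 3 of 12 resident cells of these classes. S100a16 and S100a1 were higher in the infarct, S100a13 was lower and S100a4 was low in both. S100a16 was 6.17 against 3.63, a difference of 2.54, and S100a1, at 2.80 in the infarct, was higher by 1.80. S100a13 was 4.65 against 6.09, a difference of -1.45. S100a4 was 1.14 against 1.44, a difference of -0.31, with the same share of 16.7% of cells.

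Past 1 unit 2 members were higher, against 24.1% of 6548 genes, and 1 was lower, against 10.4%. The median was 0.13 for members and 0.29 for all genes, and 7 of 8 differences were smaller than the SD of both classes, S100b being listed at 0 in both. With medians over cells the S100a1 difference was 0.00, and without the resident cell with 8 myeloid genes 2 members were lower, S100a11 being at -1.17. Of the partners 3 were higher and 3 lower, with Anxa6 at 3.29 against 6.03 (-2.74) and differences of 1.35 for Myh10, 1.27 for Atp2a2 and -1.20 for Sugt1. Mean TPM of Myh10 went the other way, at 30.5 in the infarct against 78.8, so its direction depends on the scale. That of Anxa6 was 181 in the infarct against 321.

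The untraced scar cells of Nov11 were last set against the activated Tcf21-traced cells of Nov4. The scar cells had lower means for 6 of the 8 members and for 5893 of the 7815 genes past the filter, and S100a4 was nearly undetected. S100a4 was 0.31 against 4.51, which is a difference of -4.19 and larger than both cell-to-cell SDs (1.68 and 3.96). S100a6 was 6.86 against 10.65 (-3.79), S100a11 8.69 against 11.85 (-3.16), S100a16 4.06 against 6.68 (-2.62), S100a13 4.35 against 6.68 (-2.33) and S100a10 7.19 against 9.40 (-2.21). S100a1 differed by 0.88 and was not lower. Marker lists differed too: the epicardial list summed to 89.6 against 1.97 TPM, with Wt1 in 6 of 29 against 1 of 44 cells. The smooth muscle and pericyte list summed to 172 against 55.9 TPM, led in the scar class by Rgs5 from 1 cell. The cardiomyocyte list was lower, at 6.35 against 13.5 TPM. Pdgfra was detected in 14 of 29 against 39 of 44 cells. Their bearing on the S100 genes was not tested.

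These 6 members lower past 1 unit stand against 26.5% of 7815 genes, and the 0 higher against 2.06%. On the logarithm of mean TPM 3 were lower and 1, S100a1 at 2.21, was higher, and S100a10 was at -0.22. The scar mean of S100a1 includes the cell at 12.99, and its medians over cells were 0.00 in both classes. The median was -2.48 for members and -0.49 for all genes. The 6 low-gene scar cells weigh on the abundant members: without them the difference was -2.40 for S100a6, -1.29 for S100a11, -1.19 for S100a13, -1.57 for S100a16, -0.34 for S100a10 and 1.85 for S100a1. That of S100a4 was -4.11, almost as large as with them. Of the partners, with the low-gene cells included, 0 were higher and 8 lower past 1 unit, led by Anxa6 (-2.14), Anxa1 (-2.11), Anxa2 (-2.07) and Anxa5 (-1.83). Medians over cells were closer for Anxa1 (10.48 against 11.08), Anxa5 (9.41 against 9.77) and Anxa2 (10.32 against 11.45). For Anxa6 they were 4.07 against 7.16. Mean TPM was 202 against 234 for Anxa6, 1799 against 2279 for Anxa1, 2034 against 2763 for Anxa2 and 798 against 917 for Anxa5.

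**Figure D4:**
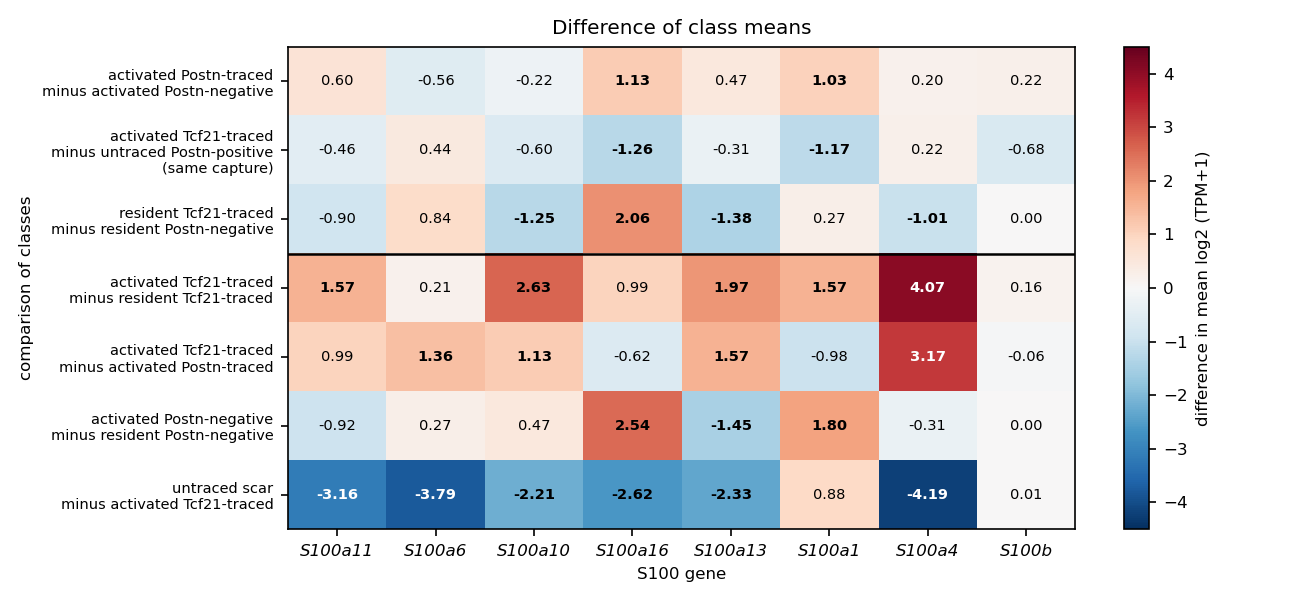
Colours and numbers give the difference in mean log2 (TPM+1) of each S100 gene (columns) in the 7 comparisons (the 3 above the line within 1 capture, the 4 below between captures), with differences past 1 unit in bold. The S100a4 differences of 4.07, 3.17 and -4.19 are all between captures and all involve the activated Tcf21-traced cells, and within captures S100a4 differed by 0.20, 0.22 and -1.01.

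The 4 comparisons with activated Tcf21-traced cells share those 44 cells and are not independent of one another, and others share classes too. Over all 7, the S100a4 difference was above 0 in 4 and past 1 unit in 4, of which 1 lies within a capture.

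Within single cells the members were often found together. The median cell had 5 of the 8 members above 5 TPM, and the medians of the activated Tcf21-traced and untraced Postn-positive cells were 6. All 8 were detected in 2 cells, both activated Tcf21-traced. No member was detected in 6 cells, of which 5 were low-gene scar cells with 141 to 264 genes and the other was an activated Postn-traced cell with 2378 genes and 6 fibroblast genes.

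All 56 cells with S100a4 also had S100a6 and S100a11, which 173 and 178 of all 185 cells had, and 54 had S100a10, which 161 had, whereas 117 cells had S100a6 without S100a4. S100a1 and S100a4 were each found without the other, with 28 cells for both, 48 for S100a1 alone and 28 for S100a4 alone. S100a1 and S100a13, whose promoters overlap, were found together in 61 cells, S100a1 alone in 15 and S100a13 alone in 77.

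Levels were correlated across 185 cells after subtracting the mean of each class and capture. The 28 pairs had Pearson's r from -0.07 to 0.61 with a median of 0.15. The highest were S100a6 with S100a11 (0.61), S100a10 with S100a11 (0.50) and S100a6 with S100a10 (0.49), the 3 abundant members. S100a4 had r between 0.01 and 0.16 with its 7 paralogs, and 0.16 with S100a6, 6.84 kb away. S100a1 with S100a13 had r of 0.05. The values of a cell come from the same library, and 7 members also varied with the number of genes detected in a cell, with r from 0.33 for S100a4 to 0.60 for S100a11, while S100b had 0.02.

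The highest r values rest in part on few cells. Without the 6 cells with no member and the resident Postn-negative cell with 2 fibroblast genes, left out after the data were seen, r over the other 178 cells was 0.33 for S100a6 with S100a11, 0.29 for S100a10 with S100a11 and 0.29 for S100a6 with S100a10. For S100a6 and S100a11 the r within activated Postn-traced cells was 0.82 with and 0.24 without 1 such cell, within resident Postn-negative cells 0.81 and 0.13 without 1, and within untraced scar cells 0.74 and 0.31 without 5. In the classes with none of these cells it was 0.62 in untraced Postn-positive (0.46 in the 19 of Nov4), 0.41 in activated Postn-negative, 0.21 in activated Tcf21-traced and -0.12 in resident Tcf21-traced cells.

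**Figure D5:**
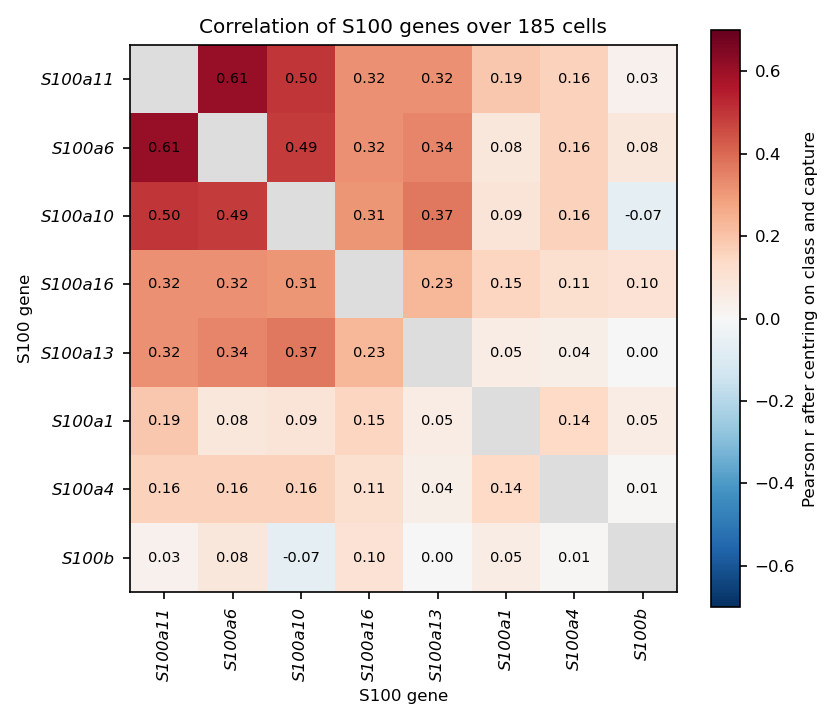
Colours and numbers give Pearson's r between S100 genes over 185 cells after subtracting the mean of class and capture. S100a6, S100a10 and S100a11 have r of 0.49 to 0.61 with one another (0.29 to 0.33 without 7 cells), and S100a4 has r of 0.01 to 0.16 with the other 7 genes.

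The 7 cells are included in the correlations with other genes. Among 7843 genes, those most correlated with S100a4 across cells were Lgals3, which encodes a galactose-binding lectin, at 0.40, Ppp1r11 at 0.39, Pfkl, a glycolytic enzyme, at 0.37, and Tmem208 and Pdcl3 at 0.36. Over the 9 class means the highest were Ywhab (0.91), Fasn, the fatty acid synthase (0.89), Ibtk (0.87), Serpina3n, a protease inhibitor (0.86) and Vcan, a matrix proteoglycan (0.85), with points of 1 to 44 cells. For S100a6 they included Slc39a1, a zinc transporter on the same chromosome and 359 kb away (0.66), S100a11 (0.61), Oaz1 (0.61) and Ifitm3 (0.56). For S100a11 they were Ywhae (0.66), Eif1 (0.64), and the ribosomal genes Rplp0, Rpl13 and Rps29 (0.62 each).

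S100a10 was most correlated with S100a11 (0.50), S100a6 (0.49), Ilk, a kinase of integrin adhesions (0.49), Rplp0 (0.47) and Ywhae (0.46). S100a13 was followed by Txn1 and Elovl1 (0.41 each), Ube2h and Crip2 (0.39 each) and S100a10 (0.37), and S100a16 by Ebf1, a transcription factor, and Hnrnpf (0.43 each), Atp5l (0.41), Lrrc58 (0.40) and Dnpep (0.39). For S100a1 the highest were Pdzrn3 (0.36), Cdc42bpa (0.35), Rab7 (0.34), Pigyl and AK185681 (0.33 each), and for S100b, detected in 8 cells, Cpsf7 and Rrp8 (0.35 each), Lrrfip2 and Pxn (0.34 each) and Egln2 (0.33).

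The S100 partners differed widely in detection. Anxa1, Anxa5, Anxa2, Ahnak and Myh9 were above 5 TPM in 177, 176, 175, 174 and 174 of 185 cells, with all-cell means of 9.80, 9.13, 10.04, 5.91 and 5.34. Fgf1 and Il1a, the partners of S100a13, and Ryr2 were detected in 1 cell each, Cd36 in 2, Plau in 15 and Anxa11 in 16. The receptors varied: Bsg was detected in 149 cells, Tlr4 in 38 (20.5%) and Ager, the receptor RAGE, in 5 (2.70%, interval 0.883% to 6.19%).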

How the data were processed

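Non-myocyte heart cells were captured singly on the Fluidigm C1, and libraries were made with SMARTer and Nextera chemistry. The authors deposited log2 (TPM+1) values for 17171 genes in 185 cells. The submitters' processing notes name Bowtie 1.0.0, eXpress 1.5.1 and mm10. The annotation and the assignment of reads to strands are not given in the sources used here. A title names the unit FPKM and the header TPM, and the values of each cell sum to nearly the same total, as TPM does. A further 3 columns without a sample were not used. The study gives an average read depth, but the reads of a given cell are not known here, so precision is given only for shares of cells.

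Cells were grouped by the class of their label and the capture of their name. Values are class means of the deposited log2 values, differences of these means, and shares above 5 TPM with exact 95% Clopper-Pearson intervals. No test was run, because no mouse is named. A gene passed the filter of a comparison if it was above 5 TPM in at least 10% of the cells of both classes together. A difference counted as past the fold at 1 log2 unit. Correlations are Pearson's after subtracting the mean of class and capture, over genes above 5 TPM in at least 10% of cells.

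Named genes are the 8 members, the other S100 genes, fixed lists of partners, fibroblast and activation genes (the 4 with the largest difference first), and the 5 genes most correlated with each member. Of these and of the marker genes, 2 are not reported here. The members and lists were chosen with earlier results of these data known. The abundant genes checked for values of 0, the motifs, the pairs shown by class, the values by capture and the cells singled out (with S100b, with myeloid genes or with few members) were chosen after the data were seen. Positions are from GENCODE M21 and promoters from RefSeq (GRCm38.p6). The planned comparison of the members' proteins was not run. Alternatives changed 1 choice at a time: medians over cells, means on the linear scale, pseudocounts of 0.1 and 5 TPM, a minimum of 1 TPM or none, low-gene cells left out, each cell centred on its median gene, values rescaled without the 50 most abundant genes, a fold of 2 log2 units, no filter on genes, and Spearman's correlation. A further 2 alternatives were added after the data were seen: differences without the cell with fewer than 3 fibroblast genes, and correlations without that cell and the cells with no member. The differences, the count past the fold and the correlations were tested on simulated data. The code ran on Python 3.11.15 with SciPy 1.17.1, pandas 2.3.3, Matplotlib 3.10.9 and NumPy 2.4.6.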

Additional observations from a re-analysis of the deposited data

How the results depend on the processing

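The S100a4 difference stayed on its side of 1 log2 unit and within the cell-to-cell spread of its main value in 47 of 51 alternatives over the 7 comparisons. It ranged from 2.84 to 5.90 for activated against resident Tcf21-traced cells, from 1.5 to 5.50 for activated Tcf21-traced against Postn-traced cells, and from -6.10 to -2.91 for scar against activated Tcf21-traced cells. The exceptions were 1.62 with medians over cells for activated Tcf21-traced against untraced Postn-positive cells, and, for resident Tcf21-traced against Postn-negative cells, 0.00 with medians over cells, -0.76 with a pseudocount of 5 TPM and -0.95 with each cell centred on its median gene. Among 357 alternatives for the other members, 293 likewise stayed, 17 moved by at least that spread, 24 fell within 1 unit, 22 passed it and 1 of those past 1 unit reversed: S100a16 in Postn-traced against Postn-negative cells was -0.04 on the logarithm of mean TPM. The number of members past 1 unit moved by more than 1.5 times in 14 of 58 alternatives. On the logarithm of mean TPM it was 1 instead of 2 for Postn-traced against Postn-negative and for Tcf21-traced against untraced Postn-positive cells, 3 instead of 5 for activated against resident Tcf21-traced cells and 2 (1 higher and 1 lower) instead of 4 higher for activated Tcf21-traced against Postn-traced cells. With a pseudocount of 5 TPM it was 0 in the first 2 of these and 2 instead of 4 among resident cells, where medians over cells also gave 2. For scar against activated Tcf21-traced cells it was 3 lower and 1 higher instead of 6 lower on the logarithm of mean TPM. At 2 log2 units, which by construction is harder to pass, it was 0, 0, 1, 2, 1 and 1 in the first 6 comparisons in the order of the report. Apart from that, the cause was not tested. Centring each cell moved the median gene by 0.52 (Postn-traced against Postn-negative), 0.45 (activated against resident Tcf21-traced), -0.84 (scar) and -0.26 (Tcf21-traced against untraced Postn-positive), and leaving out low-gene cells moved it by 0.34 in the scar comparison. All 7 counts over all genes stayed within 1.5 times without the filter, 213 of 216 shares stayed within their intervals, and all 28 pair correlations moved by less than 0.2 with Spearman's. Without the cell with fewer than 3 fibroblast genes and the cells with no member, an alternative added after the data were seen, 2 of the 28 moved: S100a6 with S100a11 to 0.33 and S100a10 with S100a11 to 0.29. The other 3 shares were those of scar cells with S100a6 (91.3%), S100a10 (91.3%) and S100a11 (95.7%) after low-gene cells were left out. A difference within 1 unit may change sign and still count as unmoved, as S100a4 did for activated Tcf21-traced against untraced Postn-positive cells. No paired analysis was possible because no label ties cells of different classes to the same mouse. The values keep no read depth, so a gene listed at 0 cannot be told from one missed in amplification, and S100a4 and S100a11 share sequence with other annotated genes.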
